A study of Mus musculus with 36 samples.

Results

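The comparison described here is that of the heart between 10 and 12 weeks of age in male C57BL/6NCrl mice, an inbred laboratory strain labelled wild type. It rests on the 4 heart libraries labelled 12 weeks and the 4 labelled 10 weeks, 8 of the 36 libraries of the series, which otherwise holds the heart at 8 weeks and the kidney and liver at the same 3 ages. All groups share strain, sex, genotype and untreated state and differ by age at sacrifice. The mice were bought at the same age, assigned at random to an age at sacrifice, kept a few to a cage on standard chow under a light and dark cycle, anaesthetised with ketamine and xylazine, and killed by cervical dislocation before the tissue was frozen. The day and hour of collection are not given in the sources used here, and the age of the animals cannot be told apart from the occasion on which they were collected. RNA came from pieces of tissue, which mix muscle with connective tissue, vessels, blood and whatever stayed attached. Where RNA of a cell type is lower in such a sample, fewer cells of that type and less RNA per cell cannot be told apart.

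Polyadenylated RNA was sequenced in pairs, and the deposited values are the number of read pairs that STAR counted on each gene of GRCm39, whole numbers without normalization. The 8 libraries held 21743131 to 29791297 counted pairs, 70.4% to 73.2% of all pairs, and the Pearson correlation of log2 CPM between any 2 of them over the genes tested lay between 0.982 and 0.991. Levels are given as CPM, the count of a gene relative to the TMM-scaled total of its library. A change is the log2 fold change of 12 over 10 weeks from edgeR's quasi-likelihood test, with its standard error (SE), and it passed when its p-value, after Benjamini-Hochberg adjustment across the tested genes, was under 0.05. Of 78239 genes in the files, 14952 had a mean count of at least 10 at either age and entered the test.

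The adult heart takes most of its energy from fat. Fatty acids enter the muscle cell, are carried into the mitochondrion by the carnitine shuttle and are burnt there by β-oxidation, the tricarboxylic acid cycle and the respiratory chain. The nuclear receptor PPARα senses the fatty acids and drives the genes that use them. Around the muscle lies a matrix of collagen and elastin made by fibroblasts, patrolled by resident macrophages, and the sarcomere, the contractile unit, is built from myosin, actin, titin and their partners.

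Between 10 and 12 weeks, few single genes were separated from the variation between animals. A total of 6 genes passed the adjusted p, 0.0401% of those tested. Of these, 2 were up-regulated at 12 weeks (0.0134%), namely Ucp3 and Emp2. The other 4 were down-regulated (0.0268%), namely Apoe and the long noncoding RNAs Gm75569, Gm52502 and Gm61113. With the added demand of a fold of more than 2, there remained 1 up-regulated gene, Ucp3 (0.00669%), and the 3 noncoding RNAs (0.0201%). An unadjusted p under 0.05 was found for 1782 genes (11.9%), 957 of them higher (6.4%) and 825 lower (5.52%). The ages did not overlap in 927 genes (6.2%). In 553 of them (3.7%) every 12-week library was above every 10-week library, and in 374 (2.5%) every one was below. Over all genes tested, 7904 (52.9%) had a positive and 7048 (47.1%) a negative log2 fold change, with a median of 0.01.

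**Figure D1:**
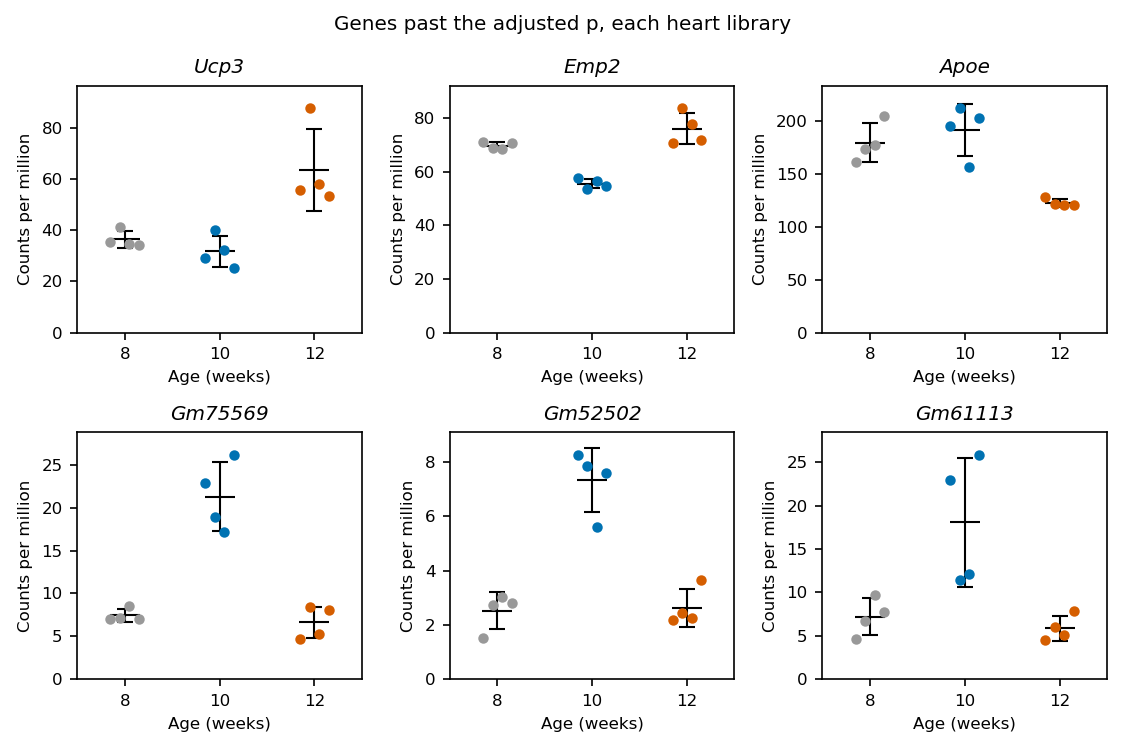
The 6 genes that passed the adjusted p, in CPM (vertical axes from 0) against age in weeks. Points are the 4 libraries of each age, lines and bars the mean and SD. Ucp3 and Emp2 lie higher at 12 than at 10 weeks in every library and Apoe lower, and the 3 noncoding RNAs are high at 10 weeks alone, with the 8- and 12-week libraries at like levels.

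Ucp3, uncoupling protein 3, is a carrier of the inner mitochondrial membrane of muscle whose gene is switched on by fatty acids through PPARα. It was measured at 29.2, 40.0, 32.5 and 25.5 CPM in the 10-week libraries. At 12 weeks it reached 55.7, 87.7, 58.2 and 53.3 CPM. Every 12-week library was above every 10-week one, and library 2 stood highest at either age. The log2 fold change was 1.01 (SE 0.15, adjusted p = 0.0123). The 8-week libraries, at 34.5 to 41.2 CPM, were within or just above the 10-week range, so that the higher level was measured at the last age only. The gene (ENSMUSG00000032942) lies at chr7:100122136-100135976, plus strand, in GRCm39.

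The sequence before the start of Ucp3 is shown because core sites of nuclear receptors lie in it. It covers the 250 bases upstream of the RefSeq start (chr7:100472741-100472990, plus strand, in GRCm38.p6), and the capitals mark AGGTCA, the core site that PPARα and related receptors read.
Ucp3: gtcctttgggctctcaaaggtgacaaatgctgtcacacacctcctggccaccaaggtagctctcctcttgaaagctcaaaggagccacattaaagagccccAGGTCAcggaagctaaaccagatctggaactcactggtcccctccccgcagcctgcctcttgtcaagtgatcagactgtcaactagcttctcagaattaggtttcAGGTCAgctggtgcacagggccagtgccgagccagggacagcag
The core site stands in it in 2 places, 149 and 44 bases before the start, both in the direction of the gene. It was found on either strand in 15.8% of 27025 genes with such a window. The form to which PPARα binds as a pair, a direct repeat of the core site with 1 base between, was not in it, and was in 0.0407% of genes. Such a match describes the letters and not the binding of a factor.

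Among the other genes that PPARα controls, the direction was mostly the same, at smaller sizes that did not pass. Of 21 members of this list that were tested, Ucp3 among them, 17 had a positive log2 fold change and 4 a negative one, with a median of 0.11 against 0.01 over all genes. The median was 0.036 without 10-week library 3 and 0.056 without 12-week library 1. An unadjusted p under 0.05 was reached by 6 in the upward and 1 in the downward direction (28.6% and 4.76%). Over all genes these shares were 6.4% and 5.52%. Pdk4, the kinase that shuts pyruvate out of the mitochondrion when fat is burnt, was at 698, 949.7, 758 and 648 CPM at 10 weeks and 1233, 1462, 1027 and 973 CPM at 12 weeks. The ages did not overlap, with a log2 fold change of 0.62 (SE 0.16, adjusted p = 0.226). Cpt1a, an isoform of the carnitine shuttle's first enzyme, gave 39.7, 51.1, 55.7 and 50.4 CPM and then 57.7, 70.1, 62 and 64.4 CPM. It did not overlap between the ages either (log2 fold change 0.37, SE 0.095, adjusted p = 0.226). Ehhadh, an enzyme of β-oxidation in the peroxisome, overlapped (log2 fold change 0.42, SE 0.14, adjusted p = 0.251), as did the receptor Ppara itself (log2 fold change 0.39, SE 0.14, adjusted p = 0.282). Ppargc1a, its coactivator, had a log2 fold change of -0.27 (adjusted p = 0.328). Angptl4, a secreted inhibitor of lipoprotein lipase and a classic target, was at 6.78 to 20.1 CPM at 10 weeks and 7.39 to 18.4 CPM at 12 weeks, with a log2 fold change of 0.04 that turned negative under several alternatives. AGGTCA was in the upstream window of 5 of the 16 list members that have one (31.2%), Ucp3, Cpt1a, Acadm, Plin2 and Plin5, against 15.8% of 27025 genes. The direct repeat of it was in none of the 16.

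The wider set of genes for the uptake and oxidation of fatty acids was almost evenly divided. Of 33 tested, 19 were positive and 14 negative (median 0.02). Acsl1, which joins fatty acids to coenzyme A, was at 934, 938, 935 and 927 CPM at 10 weeks, closely together. It was at 1054, 1064, 1062 and 1146 CPM at 12 weeks, above each of them (log2 fold change 0.21, SE 0.069, adjusted p = 0.258). The genes of glucose uptake and glycolysis were split 12 to 12 around 0. In that list, Pfkfb1, which makes the activator of phosphofructokinase, had the lowest p. It was at 15.4, 15.9, 13.2 and 15 CPM and at 20.0, 27.5, 24 and 26.9 CPM. The ages did not overlap (log2 fold change 0.73, SE 0.18, adjusted p = 0.22), and the gene passed when the 8-week libraries were left out of the fit. Of 6 genes of ketone body use, 3 were positive and 3 negative. The enzymes of the tricarboxylic acid cycle lay mostly just above 0, with 19 positive and 4 negative (median 0.06), none past the adjusted p, and a median of 0.031 without 10-week library 3, 0.018 without 12-week library 1 and 0.0089 without 12-week library 4. The creatine kinases and their partners were split 6 to 6.

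Emp2, epithelial membrane protein 2, is a membrane protein with 4 spans that acts on integrins and caveolae. It was at 57.6, 53.6, 56.5 and 54.6 CPM at 10 weeks, a narrow range, and at 70.8, 83.6, 77.9 and 72 CPM at 12 weeks. The ages were apart by more than the spread of either (log2 fold change 0.45, SE 0.068, adjusted p = 0.0124). At 8 weeks it had been at 68.3 to 71.1 CPM, so that the 10-week libraries were the low ones of the 3 ages.

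Apoe encodes apolipoprotein E, the lipoprotein ligand that liver and macrophages make in quantity. It was at 195, 212, 156 and 202 CPM at 10 weeks. At 12 weeks it was at 128, 121, 121 and 120.5 CPM, below all of them and close together. The log2 fold change was -0.64 (SE 0.093, adjusted p = 0.0123). The 8-week libraries, at 161 to 205 CPM, resembled those of 10 weeks. The summed level of 8 macrophage markers was 238, 256, 216 and 198 CPM at 10 weeks and 170.0, 199, 191 and 193 CPM at 12 weeks. The ages overlapped by 1 library. All 8 had a negative log2 fold change (median -0.30), and none of the defining ones was at 0. The complement genes C1qa, C1qb and C1qc, which tissue macrophages make, had log2 fold changes of -0.35, -0.39 and -0.44, and none passed. Alb, serum albumin, a marker of liver, was at 0.0769, 10.5, 0.0773 and 15.1 CPM at 10 weeks, high in libraries 2 and 4. Apoe in the other 2 libraries of that age was 195 and 156 CPM, and every 12-week library was lower. Without libraries 2 and 4 its log2 fold change was -0.53 (adjusted p = 0.189). At 8 weeks the liver markers summed to 0.117 to 0.545 CPM, where Apoe was at 161 to 205 CPM. The parts of macrophages and of liver tissue in the Apoe values were not tested.

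The 3 noncoding RNAs had the same form, high at 10 weeks and low at the ages before and after. Gm75569 (ENSMUSG00000140700) was at 22.9, 18.9, 17.1 and 26.2 CPM at 10 weeks and 4.71, 8.37, 5.32 and 8.03 CPM at 12 weeks. It had the lowest p of all genes (log2 fold change -1.68, SE 0.17, adjusted p = 0.000268). Its 8-week libraries were at 6.98 to 8.53 CPM. Gm52502 (ENSMUSG00000140545) was at 8.27, 7.86, 5.6 and 7.61 CPM and then 2.17, 2.43, 2.24 and 3.66 CPM (log2 fold change -1.48, SE 0.20, adjusted p = 0.0101). Neither overlapped between 10 and 12 weeks. These 2 genes are neighbours, at chr2:22902787-22903578, minus strand, and chr2:22904375-22917409, plus strand (GRCm39), and both lie within the span of Abi1, a regulator of actin. Abi1 itself did not pass (log2 fold change -0.06, adjusted p = 0.798 by edgeR).

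Gm61113 (ENSMUSG00000135102), at chr13:55335169-55336969, plus strand, was at 22.9, 11.4, 12.1 and 25.8 CPM at 10 weeks, with libraries 1 and 4 high. At 12 weeks it was at 4.48, 5.98, 5.06 and 7.84 CPM (log2 fold change -1.63, SE 0.26, adjusted p = 0.0228). The 10-week libraries lay above the others also where they were lowest. Much of these transcripts is repeated elsewhere in the genome. In a search for stretches of at least 100 bases at 90% identity or more, other places covered 98.8% of the Gm75569 transcript, 100% of Gm61113 and 15.4% of Gm52502. The closest copies were 100%, 99.8% and 99.4% identical. STAR counts only pairs with a single best place, so the counts of Gm75569 and Gm61113 are uncertain as to which copy gave the reads. The share of pairs with several places was 17.1% to 18.8% at 10 weeks and 16.2% to 16.6% at 12 weeks, without overlap. Its part in these changes was not tested.

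How firmly the 6 genes are placed depends on single libraries. Gm75569 passed whichever of the 8 libraries was left out. Without 10-week library 4 the other 5 genes did not pass, with an adjusted p of 0.0636 for Ucp3, 0.0698 for Emp2, 0.0636 for Apoe, 0.055 for Gm52502 and 0.101 for Gm61113. Without 10-week library 1 it was 0.0544 for Ucp3 and 0.0863 for Gm61113. Emp2 was at 0.0527 without 12-week library 2 and at 0.0617 without 12-week library 3. Gm61113 was at 0.0721, 0.0701 and 0.136 when 12-week library 1, 2 or 3 was left out. Without 10-week libraries 2 and 4 together, Gm75569 alone passed, and Ucp3 was at 0.0521, Emp2 at 0.218, Gm52502 at 0.0747 and Gm61113 at 0.0521. All 6 kept their direction in each of these fits.

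Immediate early genes were lower at 12 weeks in most cases, none past the adjusted p. They are transcription factors and phosphatases that cells switch on within minutes of a stimulus such as stretch, adrenaline or handling. Of 27 tested, 24 had a negative log2 fold change and 3 a positive one, with a median of -0.34 against 0.01 over all genes. An unadjusted p under 0.05 was found for 12 (44.4%), all lower, against 5.52% of all genes. In 8 the ages did not overlap, all lower, as in 2.5% of all genes. None passed the adjusted p. Nr4a3, an orphan nuclear receptor, was at 7.08, 15.4, 16.8 and 10.6 CPM at 10 weeks and 6.1, 4.54, 3.15 and 1.87 CPM at 12 weeks. The ages did not overlap, although both were spread widely (log2 fold change -1.69, SE 0.31, adjusted p = 0.0617). Dusp1, a phosphatase that turns off MAP kinases, gave 99.2, 105, 73.5 and 86.7 CPM and 71.2, 59.6, 61.4 and 60.6 CPM. It did not overlap, and the lowest 10-week library, number 3, was close to the highest 12-week one (log2 fold change -0.53, SE 0.10, adjusted p = 0.078).

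Fos, which pairs with Jun to form the factor AP-1, was at 10.1, 5.94, 3.21 and 3.03 CPM at 10 weeks, with library 1 high. It was at 2.54, 1.51, 2.14 and 1.42 CPM at 12 weeks, where all 4 were below every 10-week library (log2 fold change -1.56, SE 0.37, adjusted p = 0.22). Atf3, a repressor induced by stress, was at 5.89, 5.66, 4.44 and 4.38 CPM and then 4.16, 2.46, 1.75 and 1.83 CPM (log2 fold change -1.02, SE 0.26, adjusted p = 0.22). Fosl2, a partner of Jun, was at 26.4, 41.2, 26.5 and 25.5 CPM and 21, 23.3, 18.7 and 21.7 CPM (log2 fold change -0.50, SE 0.14, adjusted p = 0.231). Jund, Nr4a2 and Dusp5 were also without overlap, at log2 fold changes of -0.34, -0.64 and -0.29. Others overlapped. Nr4a1 was at 49.2, 37, 12.9 and 19.4 CPM against 14.9, 17.5, 12.1 and 8.55 CPM (log2 fold change -1.16), Fosb at 0.425 to 2.62 against 0.149 to 0.693 CPM (-2.06), Klf2, the shear stress factor of endothelium, at 55.4 to 101 against 45.7 to 63.9 CPM (-0.58) and Egr1 at 7.58 to 21.4 against 6.55 to 7.95 CPM (-0.72). Jun itself differed little, at 43.7 to 49.8 and 37.6 to 50.1 CPM (-0.11), and Btg2 and Myc had log2 fold changes of 0.01 and 0.01.

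At 8 weeks these genes were not uniformly at either level. Nr4a1 was at 58 to 105 CPM and Klf2 at 101 to 136 CPM, at or above the highest of the later libraries. Dusp1, at 92.1 to 107 CPM, and Atf3, at 3.31 to 7.02 CPM, were near their 10-week levels. Nr4a3 was at 5.13 to 9.76 CPM, between the 10- and 12-week levels in the mean. The 12-week libraries thus held the lowest mean of the 3 ages for each of these 5 genes.

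**Figure D2:**
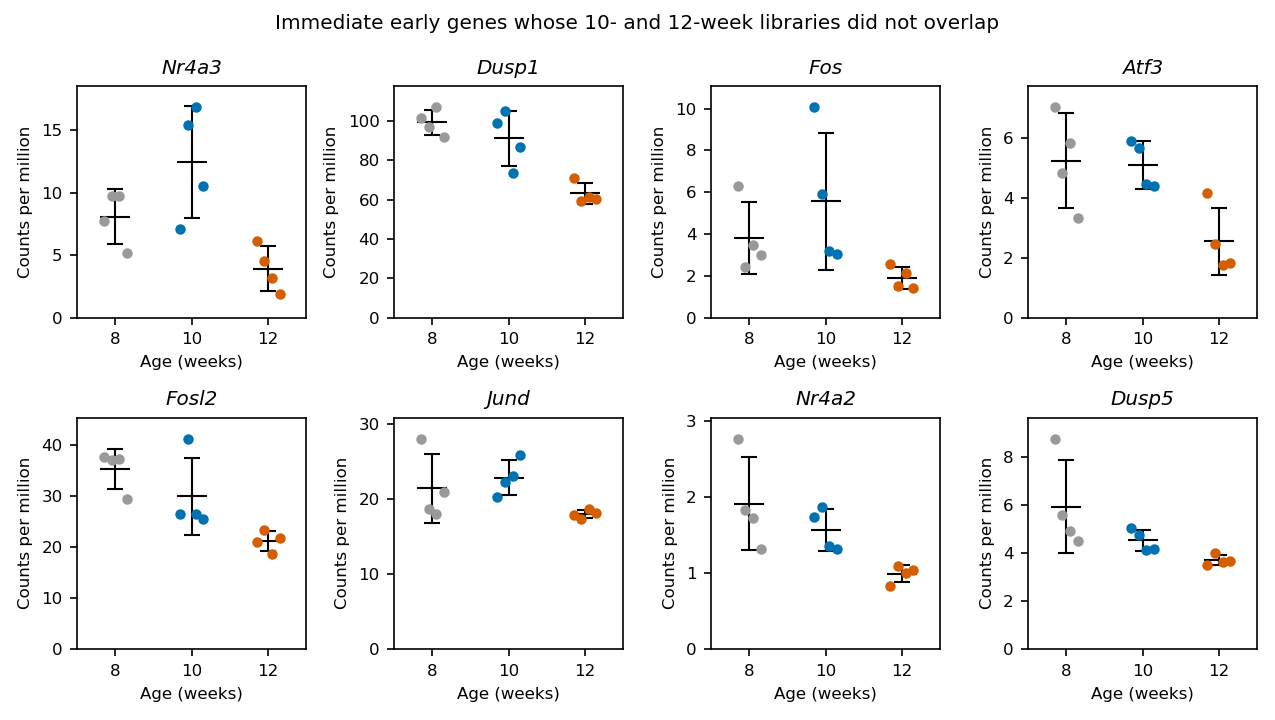
The 8 immediate early genes whose 10- and 12-week libraries did not overlap, in CPM (vertical axes from 0) against age in weeks. Points are the 4 libraries of each age, lines and bars the mean and SD. At 12 weeks all 4 libraries lie below every 10-week library, although none of these genes passed the adjusted p.

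The sequences upstream of 3 of these genes are shown because they share the core of the cAMP response element. That element is read by the factor CREB, through which several immediate early genes are known to be switched on. Each covers the 250 bases before the RefSeq start in GRCm38.p6, and capitals mark TGACG or its reverse complement CGTCA, or the full element TGACGTCA, which holds both, on either strand.
Nr4a3: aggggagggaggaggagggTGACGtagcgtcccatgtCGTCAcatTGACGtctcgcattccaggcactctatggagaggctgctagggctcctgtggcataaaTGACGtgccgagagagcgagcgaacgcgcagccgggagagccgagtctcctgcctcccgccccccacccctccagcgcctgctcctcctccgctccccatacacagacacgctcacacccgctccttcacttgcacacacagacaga
Dusp1: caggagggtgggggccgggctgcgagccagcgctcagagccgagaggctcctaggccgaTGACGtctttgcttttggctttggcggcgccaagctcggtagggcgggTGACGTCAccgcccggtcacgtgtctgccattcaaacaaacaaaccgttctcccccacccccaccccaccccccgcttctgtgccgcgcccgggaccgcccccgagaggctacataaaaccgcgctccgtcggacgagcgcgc
Fos: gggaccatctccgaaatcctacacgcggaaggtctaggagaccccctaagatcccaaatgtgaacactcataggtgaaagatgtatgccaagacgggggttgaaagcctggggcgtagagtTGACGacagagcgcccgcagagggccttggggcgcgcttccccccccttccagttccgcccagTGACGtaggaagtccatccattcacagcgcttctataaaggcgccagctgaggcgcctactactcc
The windows lie at chr4:48045055-48045304, plus strand (Nr4a3), chr17:26508473-26508722, minus strand (Dusp1), and chr12:85473640-85473889, plus strand (Fos). This core was in the window of 14 of the 22 tested members that have one (63.6%), against 19.8% of 27025 genes. The full element was in 3, Dusp1, Btg2 and Maff, against 1.77% of genes. Btg2 had a log2 fold change of 0.01, and Maff had a log2 fold change of -0.32 (adjusted p = 0.624). The AP-1 site TGANTCA was in 1 window, that of Csrnp1, and in 7.82% of genes. The serum response element, searched in 1 fixed spelling, was in none and in 0.074% of genes. The core TGACG was also in 7 of the 16 PPARα targets with a window (43.8%), a list that leaned upward. Fosl2, whose ages did not overlap, has no such match. These matches describe letters, and the binding of a factor was not tested.

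Nkx2-5, the homeobox factor that specifies heart muscle, was among the genes nearest to the threshold. It was at 77.2, 90.2, 69.7 and 80.8 CPM at 10 weeks and 64.4, 55.6, 53.2 and 59.3 CPM at 12 weeks. All 12-week libraries were below all 10-week ones (log2 fold change -0.45, SE 0.082, adjusted p = 0.0617), and at 8 weeks the gene had been at 77.1 to 80.3 CPM. Cdk5rap1, which modifies mitochondrial transfer RNAs, had the lowest p among the genes with a positive log2 fold change that did not pass. It was at 13, 13.8, 11 and 11.7 CPM and 18.5, 20.4, 15.6 and 19.6 CPM. Its ages did not overlap (log2 fold change 0.58, SE 0.10, adjusted p = 0.0617). Hsd17b11, an enzyme of the lipid droplet, was at 25.2 to 33.1 CPM at 10 weeks, 38.8 to 42.2 CPM at 12 weeks and 40.9 to 50.2 CPM at 8 weeks (log2 fold change 0.48, SE 0.090, adjusted p = 0.0695). Plcg2, a phospholipase of blood cell signalling, Prpf8, a core protein of the spliceosome, Exoc4, Huwe1, a ubiquitin ligase, Elmo1, Nop56 and Aptx followed, each without overlap, at log2 fold changes of 0.34 to 0.51 and adjusted p of 0.121 to 0.22. In the downward direction, Ptms, Eln, Uqcrb, Cd53, Arpc1b and Irf2bpl followed at -0.68 to -0.34 (adjusted p of 0.193 to 0.22).

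Contractile genes leaned upward. In the list of sarcomere genes, 24 of 30 were positive and 6 negative (median 0.10), with none past the adjusted p. An unadjusted p under 0.05 was found for 9 (30%), all higher, against 6.4% of all genes. The median was 0.044 without 12-week library 4 and 0.066 without 10-week libraries 2 and 4. Myh7, the slow β-myosin heavy chain, was at 59.8, 62.3, 72.4 and 42.2 CPM at 10 weeks and 82.7, 135, 79.9 and 98.8 CPM at 12 weeks. The ages did not overlap (log2 fold change 0.74, SE 0.18, adjusted p = 0.22), and they were below the 118 to 178 CPM of 8 weeks save for 12-week library 2. Myh6, the fast α-chain that dominates the adult mouse heart, was far more abundant, at 19518 to 23765 and 21633 to 26997 CPM (log2 fold change 0.13, adjusted p = 0.603). Myl2, the regulatory light chain of the ventricle, gave 4767, 4564, 5044 and 5952 CPM and 7406, 6042, 6326 and 6987 CPM. Its lowest 12-week value was just above its highest at 10 weeks (log2 fold change 0.40, SE 0.096, adjusted p = 0.22). Actc1, cardiac actin (0.37), and Myom2, of the M band (0.33), overlapped and did not pass, and neither did Ttn, titin (0.51), whose ages did not overlap. Among the genes of the natriuretic peptides and the stress programme the counts were 9 positive and 8 negative. Nppa, the atrial peptide, was at 2.43 to 6.26 and 5.73 to 12.5 CPM (adjusted p = 0.431).

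The genes of calcium handling were 12 positive and 6 negative (median 0.07, or 0.04 without 10-week library 2, 0.047 without 12-week library 2 and 0.0094 without 10-week libraries 2 and 4). Ryr2, the release channel of the sarcoplasmic reticulum, was at 1508, 1434, 1616 and 1231 CPM at 10 weeks and 1919.8, 1962, 1688 and 1604 CPM at 12 weeks, with overlap in 1 library (log2 fold change 0.31, SE 0.097, adjusted p = 0.247). Casq2, which stores the calcium there, was at 811 to 986 against 995 to 1319 CPM, without overlap (log2 fold change 0.34, SE 0.093, adjusted p = 0.231). Ion channels and connexins were 11 positive and 14 negative. Cacna1d, a calcium channel of the sinus node, was at 0.846, 1.12, 1.16 and 1.15 CPM and then 2.22, 2.04, 1.62 and 1.68 CPM, without overlap (log2 fold change 0.82, SE 0.23, adjusted p = 0.231). The summed level of 8 markers of heart muscle was 49101 to 52846 CPM at 10 weeks and 52518 to 65990.5 CPM at 12 weeks, with library 4 of 12 weeks at the top. Myl2, Actc1, Myh6 and Ryr2 are among these markers, which moved with the sarcomere list.

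Of 82 nuclear genes of oxidative phosphorylation, 22 had a positive and 60 a negative log2 fold change (median -0.10). The median depended on single libraries. It was -0.15 without 10-week library 3, -0.036 without 10-week library 4, -0.034 without 12-week library 2 and -0.19 without 12-week library 4. It was -0.016 without 10-week libraries 2 and 4. An unadjusted p under 0.05 was found for 15 lower (18.3%) and 2 higher (2.44%), against 5.52% and 6.4% of all genes. None passed the adjusted p. Subunits of complex III stood at both ends. Uqcrb was at 320.4, 328, 279.6 and 331 CPM at 10 weeks and 234, 243, 266 and 254 CPM at 12 weeks, without overlap (log2 fold change -0.34, SE 0.076, adjusted p = 0.22). Uqcr11 was at 271 to 353 CPM at 10 weeks and 212 to 263 CPM at 12 weeks (log2 fold change -0.41, SE 0.10, adjusted p = 0.22), also without overlap, and Uqcr10 had a log2 fold change of -0.46. Uqcrh and the core protein Uqcrc2 lay on the other side, at 0.52 and 0.25. Uqcrh was at 104, 85.8, 76.4 and 114 CPM and 151, 121, 119 and 153 CPM, without overlap (log2 fold change 0.52, SE 0.16, adjusted p = 0.247). Of complex I, Ndufa1 (-0.30) had no overlap, while Ndufa2 (-0.37) and Ndufs7 (-0.28) did overlap.

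Of the 13 protein genes of the mitochondrial genome, 12 were tested, 1 positive and 11 negative, with a median of -0.18, which was 0.032 without 10-week library 1, -0.28 without 10-week library 3 and -0.11 without 12-week library 4. mt-Nd1 was at 36472, 32489.5, 29942 and 32977 CPM at 10 weeks and 28859.7, 25354, 29288 and 28236 CPM at 12 weeks, without overlap (log2 fold change -0.24, adjusted p = 0.293). mt-Co2 was split within each age. It was at 49.4, 13.9, 13 and 12.9 CPM at 10 weeks and 46.6, 13.7, 10.8 and 4.93 CPM at 12 weeks, so that library 1 of both ages stood near the 8-week libraries at 36.3 to 46.4 CPM. mt-Co3 and mt-Nd3 were high in library 1 of both ages as well. The log2 fold changes of these 3 were -0.26, -0.61 and -0.17 and took the other sign when 10-week library 1 was left out. Only pairs with a single place in the genome are counted, and mitochondrial sequence is in part copied in the nuclear genome, so the counts of these 3 genes are uncertain.

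A property of the genes moved with these lists. Sorted by the length of their exons into 10 groups of equal size, the genes of the shortest group had a median log2 fold change of -0.05 and those of the longest group 0.08. An unadjusted p under 0.05 in the upward direction was found for 3.47% of the shortest and 13.6% of the longest genes, and in the downward direction for 8.75% and 1.94%. The Spearman correlation of length and log2 fold change across 14948 genes was 0.159, as a description, since genes are not independent replicates. By library, the longest group less the shortest was -0.12, -0.04, 0.05 and -0.18 at 10 weeks on the log2 scale, relative to the mean of the libraries, and 0.04, 0.16, 0.05 and -0.02 at 12 weeks, so the ages overlapped. The median exon length was 5973 bases over all genes tested, 2850.5 in the ribosomal list, 3324 in the immediate early list and 3974.5 in the nuclear respiratory chain, against 6914 in the sarcomere list and 7179 in the collagens. The share of pairs that aligned nowhere was 0.503% in 12-week library 4 and 1.12% to 1.35% in the other 7. The part of transcript length in the values of the lists was not tested.

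**Figure D3:**
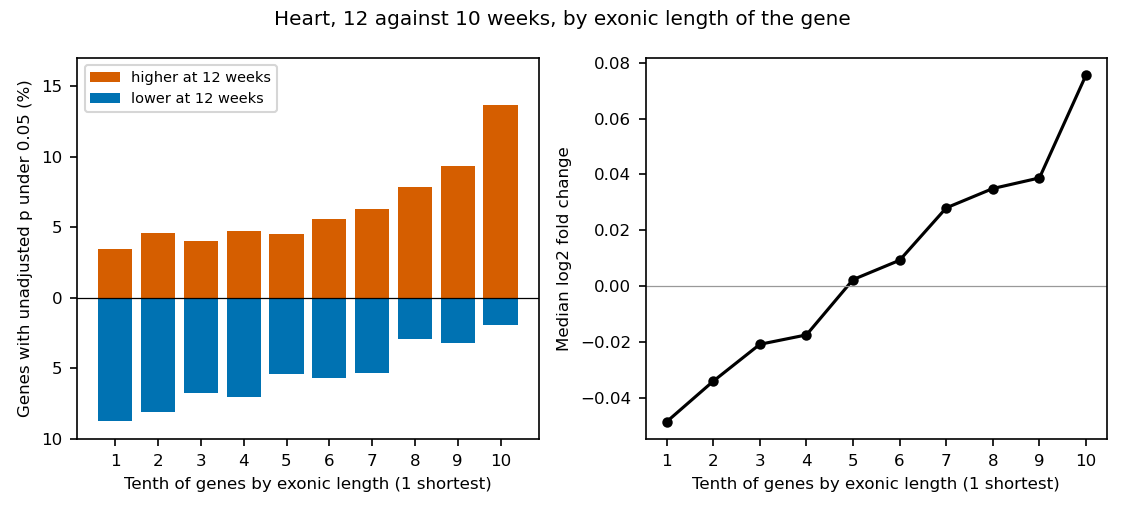
Genes in 10 groups by exonic length, from the shortest (1) to the longest (10). Left, percentage of each group with an unadjusted p under 0.05, higher at 12 weeks above the line and lower below it. Right, the median log2 fold change, which runs from -0.05 to 0.08.

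Genes of the extracellular matrix leaned downward at 12 weeks. In the list of collagens and the enzymes that process them, 8 of 35 were positive and 27 negative (median -0.11). The median was -0.049 without 10-week library 1, -0.19 without 10-week library 2 and -0.27 without 10-week libraries 2 and 4. An unadjusted p under 0.05 was found for 9 (25.7%), all lower, against 5.52% of all genes. Col1a1, the main chain of type I collagen, was at 139.9, 79.9, 109 and 99.2 CPM at 10 weeks and 79.9, 88.3, 82.4 and 77 CPM at 12 weeks. Library 2 of 10 weeks lay within the 12-week range (log2 fold change -0.39, SE 0.13, adjusted p = 0.26). Col14a1, which binds fibrils, did not overlap, at 12.8 to 15.2 against 9.78 to 12.7 CPM (log2 fold change -0.39, SE 0.10, adjusted p = 0.231). Lox and Loxl1, which crosslink collagen and elastin, had log2 fold changes of -0.59 and -0.46, and Serpinh1, the collagen chaperone, -0.40, all with overlap. Eln, elastin, was at 67.1, 35.1, 48.9 and 53.5 CPM and then 34, 30.2, 32.5 and 30.9 CPM. Every 12-week library was below every 10-week one (log2 fold change -0.68, SE 0.15, adjusted p = 0.22), by little in the case of 10-week library 2. In the list of matricellular proteins and proteoglycans, 12 were positive and 23 negative (median -0.10, or -0.035 without 10-week library 1, -0.05 without 12-week library 4 and -0.21 without 10-week libraries 2 and 4). Fbln1, fibulin, was without overlap (log2 fold change -0.38, SE 0.10, adjusted p = 0.231). Lum, lumican, overlapped (log2 fold change -0.28, SE 0.092, adjusted p = 0.263). Laminins and basement membrane genes were split 8 to 9 around 0.

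Fibroblast markers moved with the matrix genes. Their summed level, over 8 genes of which Col1a1, Dcn and Lum stand in the matrix lists too, was 1819, 1759, 1770.0 and 2079 CPM at 10 weeks and 1623, 1536, 1563 and 1682 CPM at 12 weeks, without overlap. All 8 had a negative log2 fold change, with a median of -0.21. Dpt, Col1a1, Lum and Gsn, 4 of them (50%), had an unadjusted p under 0.05, against 5.52% of all genes. The 8-week libraries were at 1534 to 1697 CPM, so the high age was again 10 weeks. Endothelial markers, at 805 to 882 and 837 to 926 CPM, and those of smooth muscle and pericytes, at 1411 to 1528 and 1354 to 1532 CPM, overlapped between the ages. The part of cell makeup in the matrix values was not tested.

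**Figure D4:**
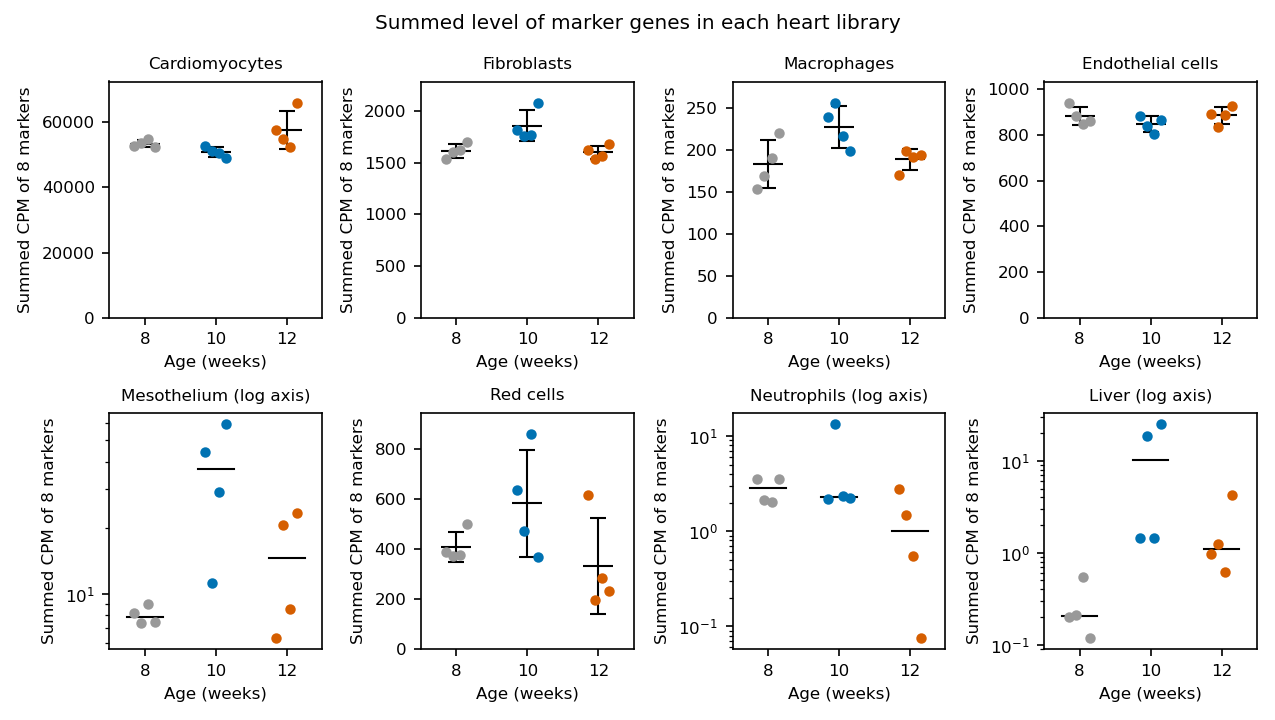
Summed CPM of 8 marker genes of each cell type or tissue against age in weeks, 1 point per heart library. Lines and bars are the mean and SD, or the median alone on the 3 logarithmic axes. Fibroblast markers are higher in all 10-week than in all 12-week libraries, and liver markers are high in 2 of the 10-week libraries.

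Markers of tissue outside the heart muscle varied between the libraries of an age. The sum of 8 liver markers was 1.46, 18.8, 1.43 and 25.4 CPM at 10 weeks and 0.971, 1.23, 0.616 and 4.22 CPM at 12 weeks, against 0.117 to 0.545 CPM at 8 weeks. Libraries 2 and 4 of 10 weeks were high, and 12-week library 4 stood above its own group. Of these markers 6 were tested, all negative, with an unadjusted p under 0.05 in all 6, against 5.52% of all genes. The adjusted p was passed by none. A mean count of 10 at either age sufficed for testing. A marker of liver or mesothelium near 0 at 12 weeks could thus enter through its 10-week libraries alone, which builds in a negative sign. Markers of mesothelium, the outer lining of the heart and of the cavity around it, summed to 44.4, 11.2, 29.2 and 59.5 CPM and 6.29, 20.5, 8.56 and 23.3 CPM and were at 7.37 to 9.03 CPM at 8 weeks. All 8 were negative (median -1.58). Krt8, a keratin of this lining, was at 0.234 to 1.23 CPM and 0.0462 to 0.224 CPM, without overlap (log2 fold change -2.65, SE 0.62, adjusted p = 0.22). It entered the test through its 10-week libraries alone. Msln and Upk3b, which define mesothelium, overlapped, at 2.48 to 11.3 against 0.416 to 5.53 CPM and 2.29 to 21.9 against 0.555 to 9 CPM. Neutrophil markers summed to 2.19, 13.5, 2.32 and 2.21 CPM at 10 weeks, where library 2 stood apart, and to 2.77, 1.48, 0.551 and 0.0747 CPM at 12 weeks. Hba-a1, a globin of red cells, was at 511, 396, 723 and 307 CPM and 492, 163, 235 and 194 CPM, with overlap (log2 fold change -0.84, SE 0.28, adjusted p = 0.265). Markers of white fat, at 69.4 to 85.7 and 47 to 74 CPM, skeletal muscle, at 147 to 247 and 191 to 308 CPM, and brown fat, at 453 to 582 and 389.8 to 569 CPM with Ucp1 at 0, also overlapped. Lung markers were at 0.85 to 1.12 and 0.56 to 1.88 CPM, with Sftpa1, Sftpd, Scgb1a1 and Scgb3a2 at 0. The summed markers of atrial muscle, Schwann cells and neurons, T and natural killer cells, B and plasma cells, thymus, and cartilage and valve overlapped as well. Th, Igkc, Hba-a2, Hbb-bs, Rag2, Foxn1 and Myh4 were at 0 in all 8 libraries. Only pairs with a single place on 1 gene are counted, so a count of 0 does not show that a transcript was absent.

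**Figure D5:**
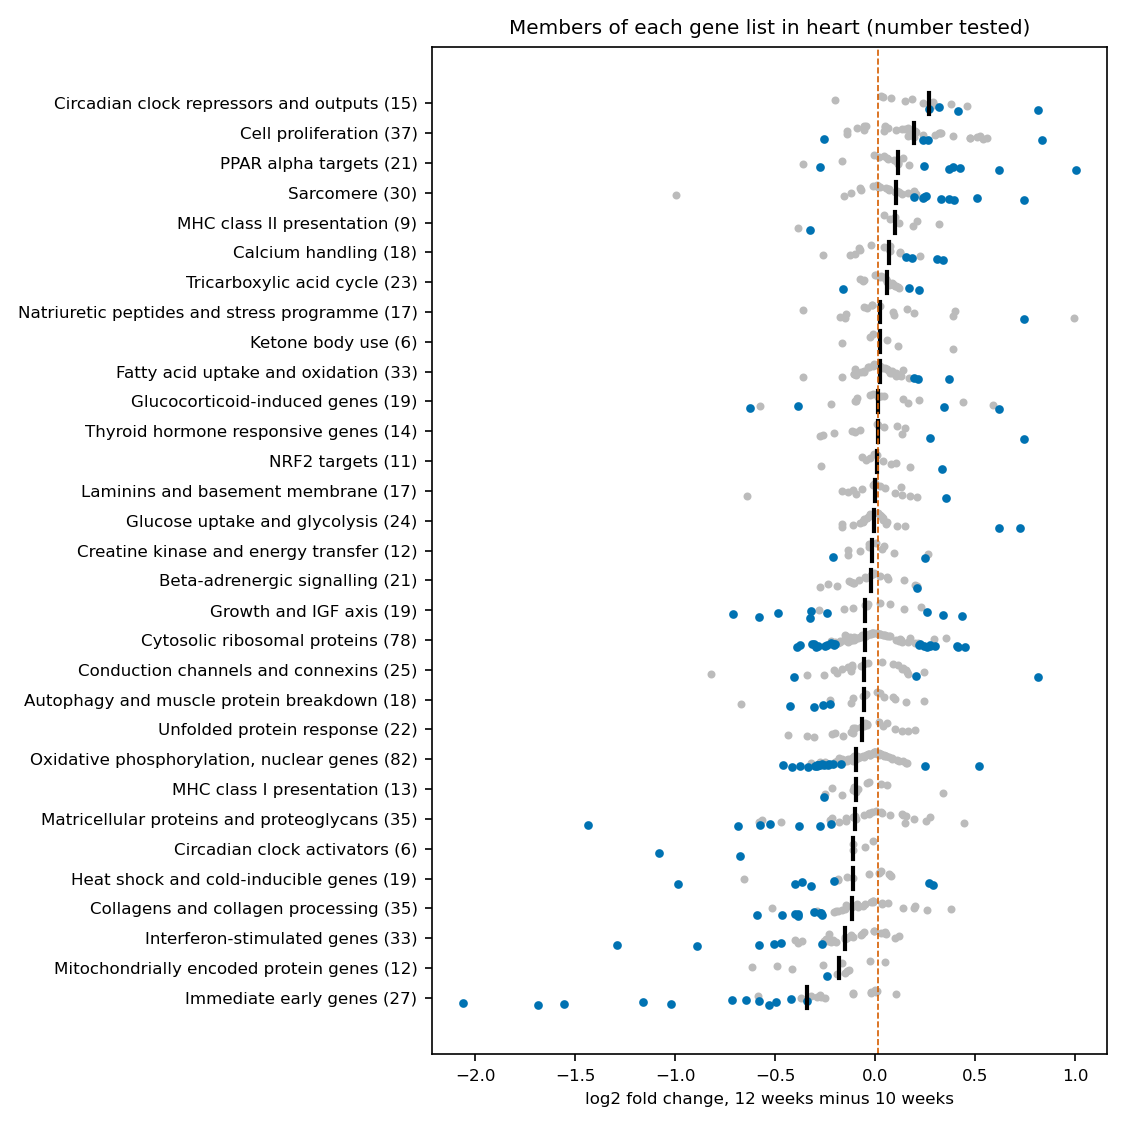
Log2 fold change (12 weeks minus 10 weeks) of each member of the pathway lists, with the number tested in brackets. Blue points have an unadjusted p under 0.05, black bars are list medians, and the dashed line is the median of all genes tested, 0.01. Lists run from the immediate early genes at the bottom, with a median of -0.34, to the clock repressors and outputs at the top, with 0.27.

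The genes of the circadian clock lay on both sides of 0. Of 15 repressors and outputs, 14 had a positive log2 fold change and 1 a negative one, with a median of 0.27. The 6 activators and genes of the opposite phase were all negative, with a median of -0.11. None passed. The median of the repressors and outputs was 0.11 without 10-week library 1, 0.42 without 10-week library 2 and 0.58 without 10-week libraries 2 and 4. That of the activators was -0.072, -0.22, -0.21 and -0.28 without 10-week library 1, 2 or 4 or 12-week library 2, and -0.39 without 10-week libraries 2 and 4. The spread between animals of an age was wide. Ciart, a repressor, was at 3.42, 15.6, 6.91 and 11.5 CPM at 10 weeks and 9.57, 16.5, 19.4 and 19.5 CPM at 12 weeks. Bmal1, the central activator, was at 10.6, 1.36, 3.79 and 3.44 CPM and 3.79, 1.97, 2.53 and 0.971 CPM. Library 1 of 10 weeks thus held the lowest Ciart and the highest Bmal1, and library 2 of that age resembled the 12-week libraries in both. Tef, an output of the clock, had a log2 fold change of 0.41 and Nfil3, which opposes it, -0.68 (adjusted p = 0.263 and 0.273). The clock has a period of a day, and the hour at which each animal was killed cannot be told apart from its age here.

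Of 19 heat shock and cold-inducible genes, 8 were positive and 11 negative. The 2 that are induced by cold, Cirbp and Rbm3, were positive (0.29 and 0.27), while Hspa1b, Dnaja1 and Hsp90aa1, induced by heat, were negative (-0.99, -0.40 and -0.37). Cirbp was at 19.7, 21.7, 22.7 and 21.4 CPM at 10 weeks and 25.9, 25.8, 27.5 and 25.1 CPM at 12 weeks, without overlap (log2 fold change 0.29, SE 0.082, adjusted p = 0.231). Chordc1, a partner of the HSP90 chaperone, was without overlap in the other direction, at 50.7 to 60.9 against 41.4 to 47.6 CPM (log2 fold change -0.32, SE 0.078, adjusted p = 0.22).

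Interferon-stimulated genes were mostly lower, 27 of 33, with a median of -0.15 and none past the adjusted p. The median was -0.076, -0.23, -0.24 and -0.085 without 10-week library 1 or 4 or 12-week library 2 or 4. Irf7, the factor that amplifies the response, was at 12.8, 28.5, 12.3 and 9.78 CPM and 8.04, 9.92, 9.05 and 6.91 CPM, where library 2 of 10 weeks was far above the rest (log2 fold change -0.89, SE 0.25, adjusted p = 0.231). Oas3, an antiviral sensor, was at 0.348 to 0.889 against 0.139 to 0.387 CPM (log2 fold change -1.29, SE 0.43, adjusted p = 0.263). With so few counts at 12 weeks, Oas3 entered the test through its 10-week libraries alone, which builds in a negative sign. Complement C4b, at 16.7, 18.4, 9.77 and 11.7 CPM and 6.75, 7.74, 5.42 and 8.29 CPM, had no overlap (log2 fold change -1.0, SE 0.19, adjusted p = 0.0793) and was at 4.75 to 7.45 CPM at 8 weeks. Haptoglobin, Hp, a plasma protein of liver and neutrophils, was at 1.23, 3.83, 0.734 and 1.43 CPM and 0.647, 0.281, 0.227 and 0.336 CPM (log2 fold change -2.29, SE 0.48, adjusted p = 0.154). It was highest in 10-week library 2, which had the highest neutrophil markers and whose liver markers were high too. Hp had few counts at 12 weeks and entered the test through its 10-week libraries alone, which builds in a negative sign. Genes of MHC class I presentation were 3 positive and 10 negative and those of class II 7 and 2.

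Genes of cell proliferation were positive in 29 of 37 cases, with a median of 0.19, and 3 (8.11%) had an unadjusted p under 0.05 in the upward direction, against 6.4% of all genes. The median was 0.044 without 10-week library 2, 0.34 without 10-week library 3, 0.11 without 12-week library 3 and 0.015 without 10-week libraries 2 and 4. Cenpf, a protein of the kinetochore, was at 13.7, 18.7, 27 and 23.3 CPM at 10 weeks and 49.2, 36.7, 35.4 and 26.7 CPM at 12 weeks, with overlap in 1 pair of libraries (log2 fold change 0.84, SE 0.20, adjusted p = 0.22). Mki67 and Top2a, the usual marks of dividing cells, had log2 fold changes of 0.48 and 0.54 (adjusted p = 0.503 and 0.499). Of 19 genes of the growth hormone and IGF axis, 3 had an unadjusted p under 0.05 in the upward and 6 in the downward direction. These are 15.8% and 31.6%, against 6.4% and 5.52% of all genes. Igfbp3, a carrier of IGF, was at 15, 22.1, 20.7 and 21.6 CPM and 28.1, 25.9, 28.2 and 25.1 CPM, without overlap (log2 fold change 0.44, SE 0.14, adjusted p = 0.247). Igf1r, the receptor, had a log2 fold change of 0.34, Irs1, the substrate that receptor acts on, -0.58, and Igfbp6 -0.71, none of which passed.

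Of 78 cytosolic ribosomal proteins, 10 had an unadjusted p under 0.05 in the upward and 12 in the downward direction. These are 12.8% and 15.4%, against 6.4% and 5.52% of all genes. The median was -0.05, or -0.16 without 12-week library 4 and -0.082 without 10-week library 3. It was -0.014, -0.013 and -0.002 without 12-week library 2 or 3 or 10-week library 4. Without 10-week libraries 2 and 4 it was 0.03. Rpl7 was at 164, 152, 142 and 168 CPM and 250.2, 195, 190.3 and 219 CPM (log2 fold change 0.45, SE 0.11, adjusted p = 0.22) and Rplp2 at 170.3 to 201 and 141 to 166 CPM (log2 fold change -0.29, SE 0.078, adjusted p = 0.231), both without overlap. Many of these genes have processed copies in the genome that share reads with them, so counts of single members are uncertain. The remaining lists had medians of -0.06 to 0.02, and of -0.18 to 0.13 with 1 library left out. The positive and negative members numbered 10 and 9 for glucocorticoid-induced genes, 6 and 5 for targets of NRF2, 7 and 15 for the unfolded protein response, 8 and 6 for thyroid-responsive genes, 7 and 14 for β-adrenergic signalling, and 7 and 11 for autophagy and protein breakdown.

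The 24 genes that the running text of the study names in heart were all tested, and none passed between 10 and 12 weeks. They were named for their change from 8 weeks on these same samples, and the comparisons share the 12-week libraries, so their values are given as a description. There were 9 positive and 15 negative, with a median of -0.26 that was 0.12 without 10-week library 1, -0.079 and -0.093 without 12-week library 3 or 4, and -0.025 with the second strand. The study names some of these genes as rising and others as falling, so the pooled counts and median do not test its directions. Cdh4, a cadherin, was at 2.19, 1.87, 1.85 and 2.13 CPM at 10 weeks and 4.39, 3.48, 2.5 and 3.58 CPM at 12 weeks (log2 fold change 0.78, SE 0.20, adjusted p = 0.22). Nckap5 was at 6.12 to 8.73 and 9.88 to 12.1 CPM (log2 fold change 0.56, SE 0.13, adjusted p = 0.22). Both lay above their 8-week levels at 10 weeks already and did not overlap between 10 and 12 weeks. Ghrl, ghrelin, was at 0.269, 0.0468, 0.309 and 0.287 CPM and 0.508, 1.02, 0.713 and 0.523 CPM, a level of few counts (log2 fold change 1.56, SE 0.42, adjusted p = 0.231). It entered the test through its 12-week libraries alone, which builds in a positive sign. Fmod, fibromodulin, was at 5.39, 0.608, 4.56 and 9.33 CPM at 10 weeks and 0.185, 2.39, 1.43 and 3.25 CPM at 12 weeks, high where the mesothelium markers were high (log2 fold change -1.44, SE 0.55, adjusted p = 0.31). Cyp2e1, a cytochrome of liver, was at 0.842 to 2.33 against 0.259 to 0.647 CPM, without overlap, and highest in 10-week library 4, where the liver markers were highest (log2 fold change -1.66, SE 0.41, adjusted p = 0.22). In 10-week library 2, whose liver markers were high too, it was the lowest of that age, at 0.842 CPM. Cyp2e1 is itself 1 of the 8 liver markers summed. The mean at 8 weeks was 0.726 CPM for Fmod and 0.124 CPM for Cyp2e1, below their 12-week means of 1.81 and 0.425 CPM. Slfn4, S100a8 and Retnlg, which neutrophils and monocytes express, were highest in 10-week library 2, with log2 fold changes of -3.04, -2.52 and -2.98 (adjusted p = 0.22, 0.239 and 0.247). They had few counts at 12 weeks and entered the test through the 10-week libraries alone, which builds in a negative sign. Tnc, tenascin, was at 0.541 to 1.27 and 0.635 to 1.3 CPM, and Nppb, the B-type natriuretic peptide, at 12.2 to 107 and 56.3 to 94.3 CPM, with adjusted p of 0.903 and 0.754.

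Whether the change from 10 to 12 weeks differed between the heart and the other organs was tested by an interaction term in 1 model of all 36 libraries. Against the kidney, 3 genes passed (0.0201%). Rps27, a ribosomal protein, was at 102, 112, 122 and 138 CPM at 10 weeks and 163, 141, 139 and 187 CPM at 12 weeks in heart, and at 149 ± 17.8 and 93 ± 1.84 CPM in kidney (mean ± SD, n = 4). The difference of the log2 fold changes, heart minus kidney, was 1.09 (SE 0.16, adjusted p = 0.00112). For Cyp2e1 it was -2.06 (SE 0.34, adjusted p = 0.00667) and for C4b -1.47 (SE 0.27, adjusted p = 0.0325), both lower in heart and higher in kidney at 12 weeks. Cyp2e1 did not pass with the 24 libraries of both ages (adjusted p = 0.0605), with limma-voom (0.215) or without 12-week library 3 (0.056). C4b did not pass in these fits (0.188, 0.172 and 0.0809), with the first strand (0.0715), or without 10-week library 1 or 2 (0.0869 and 0.121) or 12-week library 1 or 2 (0.0601 and 0.058). With a block by replicate number it was at 0.0508. Rps27 passed in all 15 alternatives run for this model. Against the liver, Cyp2e1 had an adjusted p of 0.00144, or 0.0519 with limma-voom. Ucp3 was at 0.315 ± 0.0253 and 0.165 ± 0.0954 CPM in kidney and at 0 and 0.0263 ± 0.0304 CPM in liver, a few counts at most, and its difference did not pass against either (adjusted p = 0.423 and 0.714).

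Against the liver, 210 genes passed (1.4%), 142 with the more positive change in heart and 68 with the more negative one. In 76 of the 210 the heart had an unadjusted p under 0.05 of its own, as did 11.9% of all genes tested. The heart change is part of the difference that selected the 210, so a higher share among them is built in. Apoe was at 17287 ± 1969.7 CPM in liver at 10 weeks and 19216 ± 2425 CPM at 12 weeks (mean ± SD, n = 4), and the difference was -0.80 (SE 0.17, adjusted p = 0.0158). Pecam1, the adhesion molecule of endothelium, was at 132 to 144 and 139 to 169 CPM in heart and at 30.5 ± 5.59 and 16.9 ± 2.19 CPM in liver, with a difference of 1.05 (SE 0.15, adjusted p = 0.00061). For Tek, the receptor of angiopoietins, it was 1.17 (SE 0.19, adjusted p = 0.00101), and for Robo4, a guidance receptor of vessels, 0.95 (SE 0.14, adjusted p = 0.00061). In these 3 genes the liver change was the larger one, with log2 fold changes of -0.85, -1.07 and -0.71 in liver and 0.20, 0.11 and 0.25 in heart. Plcg2 differed by 1.65 (SE 0.23, adjusted p = 0.000578) and Elmo1 by 1.14 (SE 0.27, adjusted p = 0.0276), and in both the heart values were higher and the liver values lower at 12 weeks.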

How the data were processed

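RNA of heart, kidney and liver was measured by RNA-seq in 36 libraries, 4 for each organ and age, grouped by the age and organ given in their labels. The deposited values are counts of read pairs per gene, which the authors made by trimming reads with cutadapt 4.2, inspecting them with FastQC 0.11.9 and aligning them with STAR 2.7.11b to GRCm39 with an Ensembl annotation. STAR counts a pair once, if it aligns uniquely and falls on 1 gene alone, so genes with near-identical copies are under-counted. The unstranded column was used, as the first-strand share of 49.8% to 50.0% showed an unstranded library. The rows of unmapped, multimapping, unassigned and ambiguous pairs were left out of library sizes and tests.

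Genes with a mean count of at least 10 at 10 or 12 weeks in heart, and a count in at least 2 libraries of that age, were tested. All 12 heart libraries were fitted in 1 model with a mean for each age by the quasi-likelihood test of edgeR 4.0.16 in R 4.3.3, with TMM scaling, and 12 weeks was set against 10 weeks. p-values were two-sided and adjusted by Benjamini-Hochberg over 14952 genes. The common biological coefficient of variation was 0.118. The difference between organs was the interaction term in the same kind of model of all 36 libraries. Data were also simulated at the depths of these libraries, over 14707 genes of the comparison of 12 with 10 weeks. Of 50 genes changed by each fold, 31 passed at 1.5-fold, 44 at 2-fold, 47 at 0.5-fold and 50 at 3-fold. With them passed 11 unchanged genes. The changed genes were all above 1 CPM and far outnumbered the 6 that passed in the heart. That eases the adjusted p, so these shares are not the power of the comparison reported here.

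The members and gene lists were chosen with earlier results of these data known. Genes named are those with a given symbol that passed, the next lowest p up to 12 in each direction, members of the lists, genes that the running text of the study names in heart, and the 6 with the lowest p of a difference from kidney or liver. The list members printed, and Gm75569, Gm52502, Gm61113 and Abi1, were chosen after their values were seen. Alternatives were the 8 libraries alone, DESeq2 1.42.0, limma-voom (limma 3.58.1), another scaling, other filters, strand-specific counts, mitochondrial genes left out, a block by replicate number and each library left out. Leaving out 10-week libraries 2 and 4 together was added after their marker levels were seen. The labels call the samples biological replicates. Gene positions are from GENCODE's GRCm39 annotation, in which 78168 of 78239 genes were found, and upstream sequences from RefSeq's GRCm38.p6. A gene within the rule is not reported here. Copies of transcripts were searched with blastn 2.17.0+.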

Additional observations from a re-analysis of the deposited data

Results flagged for a closer look

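A total of 164 groups of 4 libraries were examined for a library far from the other 3 by Dixon's ratio, and 20 had one. Chance gives about 1 in 20 groups. Among the genes that passed, Ucp3 was far higher in 12-week library 2, at 87.7 CPM, than in the next, at 58.2 CPM. Apoe was at 128 CPM in 12-week library 1 with the other 3 close together, and Gm52502 at 3.66 CPM in 12-week library 4. Of the genes near the threshold, Dusp1 was at 71.2 CPM in 12-week library 1, Irf2bpl at 39.3 CPM in 12-week library 3, the lowest, and Cd53 at 7.20 CPM in 10-week library 2.

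Library 2 of 10 weeks stood apart in genes of neutrophils and monocytes. S100a8 was at 5.33 CPM, Retnlg at 1.5 CPM and Slfn4 at 1.22 CPM in it, and the summed neutrophil markers at 13.5 CPM. Ghrl was lowest there, at 0.0468 CPM. Library 4 of 10 weeks was high in Cyp2e1, at 2.33 CPM, and in the ribosomal genes Rps25, at 198 CPM, and Rpl36a, at 68.5 CPM. In library 1 of 10 weeks mt-Co2 was at 49.4 CPM, and the share of ambiguous pairs was lowest, at 7.54%. At 12 weeks, library 4 was high in Zfp984, at 13 CPM, and in the liver markers, at 4.22 CPM, library 1 was low in Cyp2s1, at 0.277 CPM, and library 3 was low in the markers of Schwann cells and neurons, at 9.76 CPM.

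Changes from 10 to 12 weeks that differed between organs by the interaction test were those of Rps27, at 1.09 on the log2 scale for heart minus kidney, C4b at -1.47 and Cyp2e1 at -2.06. For heart minus liver they were Plcg2 at 1.65, Tek at 1.17, Elmo1 at 1.14, Pecam1 at 1.05, Robo4 at 0.95, Hip1 at 0.92, Trim35 at 0.91, Ptms at -0.51, Apoe at -0.80 and Cyp2e1 at -2.10. Rps27 shares reads with processed copies, and its counts are uncertain.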

How the results depend on the processing

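The main counts were 2 genes higher and 4 lower, 1 and 3 with a fold of more than 2, 3 for heart minus kidney and 210 for heart minus liver. Ucp3 had a log2 fold change of 1.01, close to the fold limit of 1, and the count of higher genes past it was 0 with the 8 libraries alone, DESeq2, limma-voom, RLE scaling, edgeR's filterByExpr, either strand, or mitochondrial genes left out. DESeq2 gave 37 higher and 39 lower, with 6091 adjusted p not given, Gm52502 among them. With no filter there were 86 and 222 of 36652 genes, 8 and 83 with the fold. Without 10-week libraries 2 and 4 there were 0 and 1, Gm75569, also with the fold. With each library left out there were 0 to 3 higher and 1 to 8 lower, 0 to 1 and 1 to 5 with the fold, the fewest without 10-week library 4. For heart minus kidney the count was 1 with the 24 libraries of both ages or limma-voom, 44 with DESeq2 and 1 to 8 with a library left out. For heart minus liver it was 99 with limma-voom, 511 with DESeq2, 130 with no filter, 126 with the first strand and 96 to 293 with a library left out.

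Replicate numbers 1 to 4 were shared between the ages. Over the genes tested, deviations from the mean of an age correlated at -0.003, -0.082, 0.118 and 0.154 between same-numbered libraries. Between differently numbered ones the correlations ran from -0.154 to 0.137. As given above, mt-Co2, mt-Co3 and mt-Nd3 were high in library 1 of both ages. Whether a shared number stands for a shared batch cannot be told from these values. With the replicate block, 4 genes were higher and 11 lower, 2 and 10 with the fold, and the counts were 8 for heart minus kidney and 208 for heart minus liver.

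Emp2 did not pass with the 8 libraries alone (adjusted p = 0.0871), nor Gm61113 with limma-voom (0.0688). Reversals were Tnc at -0.24 and Angptl4 at -0.070 with the first strand, and Nppb at -0.19, Gpr183 at -0.22, Angptl4 at -0.40 and Alb at 3.22 without 10-week libraries 2 and 4. With a library left out, log2 fold changes that took the other sign ran from -1.20 to 0.49 for mt-Co2, -1.52 to 0.12 for mt-Co3, -0.74 to 0.23 for mt-Nd3, -0.066 to 0.15 for Plin5, -0.27 to 0.48 for Angptl4, -0.072 to 0.32 for Tnc, -0.14 to 0.30 for Gpr183, -0.34 to 0.11 for Aass and -0.033 to 0.66 for Zfp984. The causes were not tested.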
